A study of Rattus norvegicus with 6 samples.

Results

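Interferons are cytokines that put cells into an antiviral and immune-alerted state, and the genes they switch on were followed here in metrial gland of pregnant rats kept in ambient air (21% oxygen) or at 10.5% oxygen (hypoxia). The list held 37 genes: interferon gamma, the interferon receptors, the transcription factors that carry the signal, and its antiviral and immune targets. MHC and immunoproteasome genes were not included. A gene was represented by its brightest probe set, and 35 of the 37 had one, out of 14217 genes with a symbol of their own on the array. Oas2 and Gbp5 were not analysed here, and Ddx58 was found under the symbol Rig1. Of the 35, 34 passed the filter on low values, and Ifng did not.

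The metrial gland lies in the uterine wall behind the placenta and, in mid-pregnancy, holds uterine natural killer cells, vessels, decidual stroma and invading trophoblast. Per the labels, exposure to 10.5% oxygen began on gestation day 6.5 and ended on day 13.5, and whole metrial gland tissue was then collected from both groups. There were 3 arrays per group. The labels used here give no strain, age or treatment other than the oxygen level, nor whether the arrays of a group stand for different animals. The p-values therefore set the group difference only against the spread among these arrays, and part of that spread may be technical. Whether it covers variation between animals is not known. In a tissue sample, fewer cells of a type and less RNA per cell cannot be told apart.

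As background, type I interferons signal through the receptor chains Ifnar1 and Ifnar2 to a complex that includes Stat2 and Irf9 and binds the interferon-stimulated response element (ISRE) of antiviral genes such as Mx1, Isg15 and the Ifit family. Interferon gamma, made mainly by natural killer cells and T cells, signals through Ifngr1 and Ifngr2 and acts at the gamma-activated site (GAS) of genes such as Irf1 and Irf8. In the rodent uterus, interferon gamma from uterine natural killer cells is known for its part in remodelling the maternal spiral arteries. The genes were therefore divided into ligand and receptors (5 genes), a type I antiviral class (23 listed, 22 measured), an interferon gamma driven class (6 listed, 5 measured) and regulators shared with other pathways (3 genes). Many of the antiviral genes also respond to interferon gamma, so the classes describe the better known driver and are not exclusive.

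RefSeq promoters (assembly GRCr8) were available for 29 of the 37 genes. The 250 bases before the gene start were searched on both strands for GAAANNGAA, the repeat at the core of the ISRE, and for TTCNNNGAA, the GAS. The ISRE repeat was found in 9 of 15 type I antiviral promoters, 4 of 6 gamma driven promoters, 0 of 5 ligand and receptor promoters and 0 of 3 promoters of shared regulators, against 8.12% of 33465 rat promoters. The GAS was found in 3 of 15, 3 of 6, 1 of 5 and 0 of 3, against 7.67% of all. In all, 13 of the 29 promoters held the ISRE repeat, 7 held the GAS and 3 held both. A match describes letters in this window and not a bound site. For some genes, among them Mx1, Oasl, Herc6 and Stat2, the start used was not the outermost start of the gene. A missing match there holds only for the window searched. For Irf8, Irf1, Ifit3 and Bst2 it was the outermost start. Stretches around the matches are printed in lower case with the matches in capitals. Irf8 is shown because it passed the test, Irf1 because it came closest of the rest, and Ifit3 and Bst2 as antiviral genes with a pair of ISRE repeats. The last 3 were chosen after their values were seen.
Irf8: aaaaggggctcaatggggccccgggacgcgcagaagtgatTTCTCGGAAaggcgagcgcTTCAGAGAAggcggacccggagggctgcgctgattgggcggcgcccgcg
Irf1: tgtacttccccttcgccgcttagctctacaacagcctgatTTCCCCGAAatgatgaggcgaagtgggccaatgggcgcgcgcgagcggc
Ifit3: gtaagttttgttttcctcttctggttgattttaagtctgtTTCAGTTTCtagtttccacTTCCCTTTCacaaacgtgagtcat
Bst2: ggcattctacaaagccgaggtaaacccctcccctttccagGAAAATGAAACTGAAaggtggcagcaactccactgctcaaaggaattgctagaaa

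The Irf8 stretch (chr19:65699064-65699171, plus strand) holds 2 GAS matches, which begin 180 and 161 bases before the gene start. The Irf1 stretch (chr10:38417753-38417841, plus strand) holds 1, which begins 142 bases before the start. In Ifit3 (chr1:241527243-241527325, plus strand) the 2 ISRE repeats read on the other strand and begin 43 and 24 bases before the start. In Bst2 (chr16:18255044-18255138, minus strand) 2 ISRE repeats that begin 131 and 125 bases before the start overlap and are capitalised as 1 run, and a GAS match overlaps the first of them.

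The deposited values were log2 expression summaries, and a difference below is the hypoxia mean minus the ambient mean in log2 units, with its standard error (SE). A gene is said to have risen or fallen where its limma adjusted p, over 18625 kept probe sets, was under 0.05. Array medians ranged from 6.44 to 6.47. Of all kept probe sets 5.99% passed, 4.02% higher and 1.97% lower in hypoxia. Ambient replicate 3 and hypoxia replicate 2 stood apart from the other arrays of their groups for the interferon genes, as described further on.

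Of the 34 interferon genes kept, 0 rose, 1 fell and 33 did not pass. The gene that fell was Irf8, against 1.97% of all kept probe sets that fell. An unadjusted p under 0.05, taken without the low filter, was found for 6 of the 35 measured genes, against 19.3% of all 31042 probe sets. Of the differences 10 were positive, beside 50.8% of kept probe sets, and 25 negative, with a median of -0.18, beside a median of 0.0034 over all kept probe sets. The groups did not overlap for 2 genes higher in hypoxia (Ifngr2 and Irf3) and 6 lower (Irf8, Irf1, Socs1, Ifi35, Irf9 and Stat3), beside 15.8% and 14.1% of kept probe sets. The share with the hypoxia arrays lower was thus close to that over all kept probe sets, and the share with them higher was below it. The 6 lower genes included 3 of the 5 measured gamma driven genes and 2 of the 22 measured antiviral genes.

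**Figure D1:**
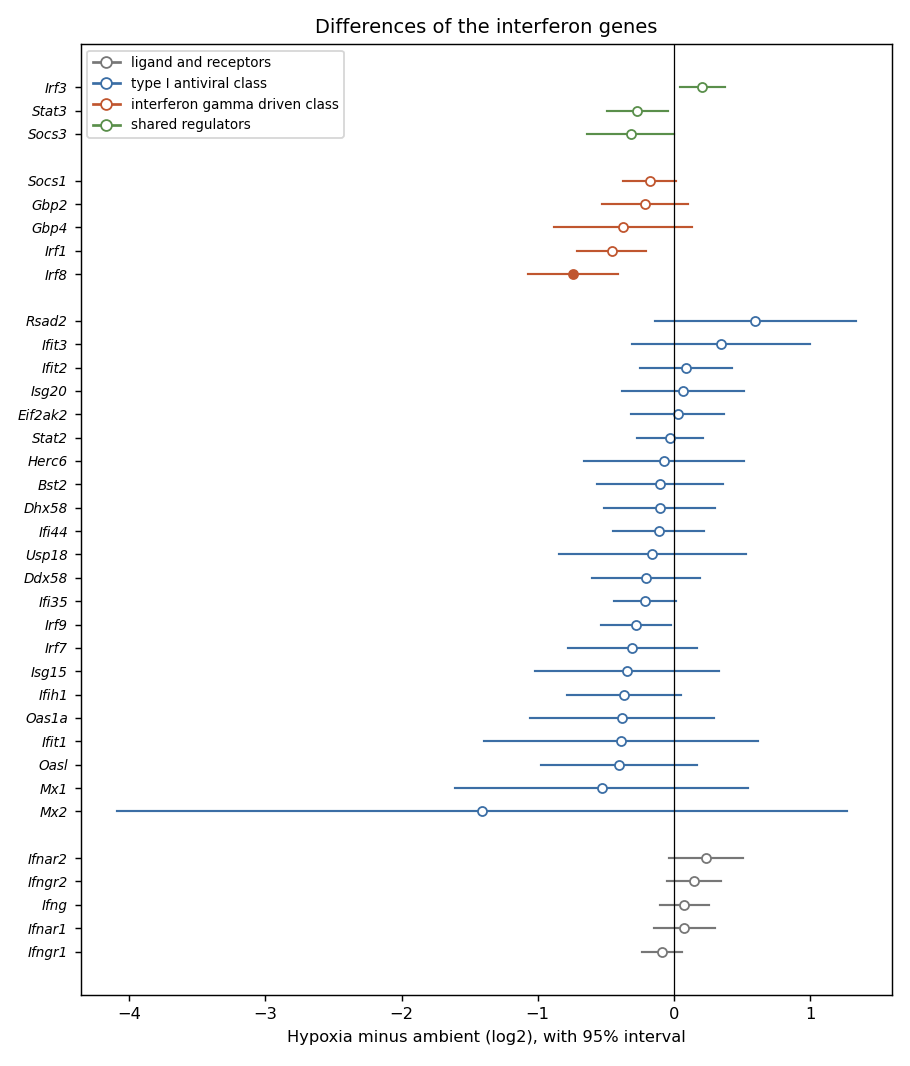
Difference of each measured interferon gene, hypoxia minus ambient in log2 units (horizontal axis), with its 95% interval from limma (line), grouped and coloured by role, and a filled point where the adjusted p was under 0.05. Irf8 alone is filled, and all 5 gamma driven genes lie left of 0, while the antiviral genes lie on both sides.

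Among ligand and receptors no transcript rose or fell: all 4 kept genes did not pass, and their median difference was 0.11. Ifng, which encodes interferon gamma itself, read 3.61, 3.58 and 3.55 on the ambient arrays and 3.49, 3.75 and 3.74 on the hypoxia arrays. All 6 values lay below the highest bacterial control probe set of the same array (4.81 to 5.003), so its level has only a bound and no fold is given.

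Ifngr1, the ligand-binding chain of the interferon gamma receptor, read 9.97, 9.89 and 10.05 in ambient and 9.89, 9.90 and 9.85 in hypoxia. The groups overlapped and differed by -0.09 (SE 0.06; 95% interval -0.24 to 0.06; adjusted p = 0.44). Ifngr2, the signalling chain, read 9.27, 9.17 and 8.97 in ambient and 9.27, 9.29 and 9.29 in hypoxia. The hypoxia arrays lay just above the highest ambient array, with a difference of 0.15 (SE 0.09; 95% interval -0.05 to 0.35; adjusted p = 0.336).

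Ifnar1 and Ifnar2 encode the chains of the type I interferon receptor. Ifnar1 differed by 0.08 (SE 0.10; adjusted p = 0.675), and its 6 probe sets ranged from -0.12 to 0.09. Ifnar2 differed by 0.24 (SE 0.12; adjusted p = 0.265), while its other probe set had the opposite sign at -0.13. The groups overlapped for Ifnar1 and for Ifnar2.

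The gamma driven class held the gene that passed. Irf8 encodes an interferon regulatory factor that also guides the formation of monocytes, macrophages and dendritic cells. It read 10.95, 11.14 and 11.40 on the ambient arrays and 10.42, 10.18 and 10.67 on the hypoxia arrays. Every hypoxia array lay below every ambient array. The mean fell from 11.16 ± 0.22 to 10.42 ± 0.24 (SD, n = 3 each), a difference of -0.74 (SE 0.14; 95% interval -1.07 to -0.41), or 1.67-fold lower, with a limma adjusted p of 0.0299. The call was lost when any 1 of 4 arrays was left out, with an adjusted p of 0.0818 and 0.0935 on leaving out ambient replicates 2 and 3, and of 0.0833 and 0.0694 on leaving out hypoxia replicates 1 and 2. The difference stayed between -0.86 and -0.62 over the alternatives.

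Irf1, the transcription factor that relays much of the interferon gamma response, read 9.86, 9.69 and 10.12 in ambient and 9.43, 9.36 and 9.50 in hypoxia. The groups did not overlap and the hypoxia arrays were close to each other. The means were 9.89 ± 0.22 and 9.43 ± 0.07 (SD, n = 3 each), a difference of -0.46 (SE 0.11; 95% interval -0.71 to -0.21) or 1.37-fold. Its adjusted p was 0.0504, just outside the threshold, and ranged from 0.0247 to 0.128 over the alternatives, under 6 of which it passed.

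The other gamma driven genes did not pass. Gbp2 and Gbp4 encode guanylate-binding proteins, GTPases that act against intracellular microbes. Gbp2 read 10.33, 10.28 and 10.61 in ambient and 10.27, 9.91 and 10.40 in hypoxia, a difference of -0.21 (SE 0.14; adjusted p = 0.385). Gbp4 read 7.18, 7.48 and 8.02 in ambient and 7.31, 6.86 and 7.39 in hypoxia, a difference of -0.37 (SE 0.22; adjusted p = 0.346). For both genes ambient replicate 3 was the highest array, hypoxia replicate 2 was the lowest, and the groups overlapped. Without ambient replicate 3 the differences were -0.12 for Gbp2 and -0.15 for Gbp4, and without hypoxia replicate 2 they were -0.07 and -0.21.

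Socs1 encodes the feedback inhibitor that blocks Janus kinases after interferon signalling. It read 6.77, 6.66 and 6.58 in ambient and 6.46, 6.53 and 6.48 in hypoxia. The groups did not overlap, but the difference of -0.18 (SE 0.08) did not pass (adjusted p = 0.246). A dimmer probe set of Socs1 was above the bacterial controls on 1 of the 3 hypoxia arrays and is given no difference. As a class, 0 rose, 1 fell and 4 did not pass. All 5 differences were negative, with a median of -0.37. The median was -0.22 without ambient replicate 3 and -0.21 without hypoxia replicate 2.

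**Figure D2:**
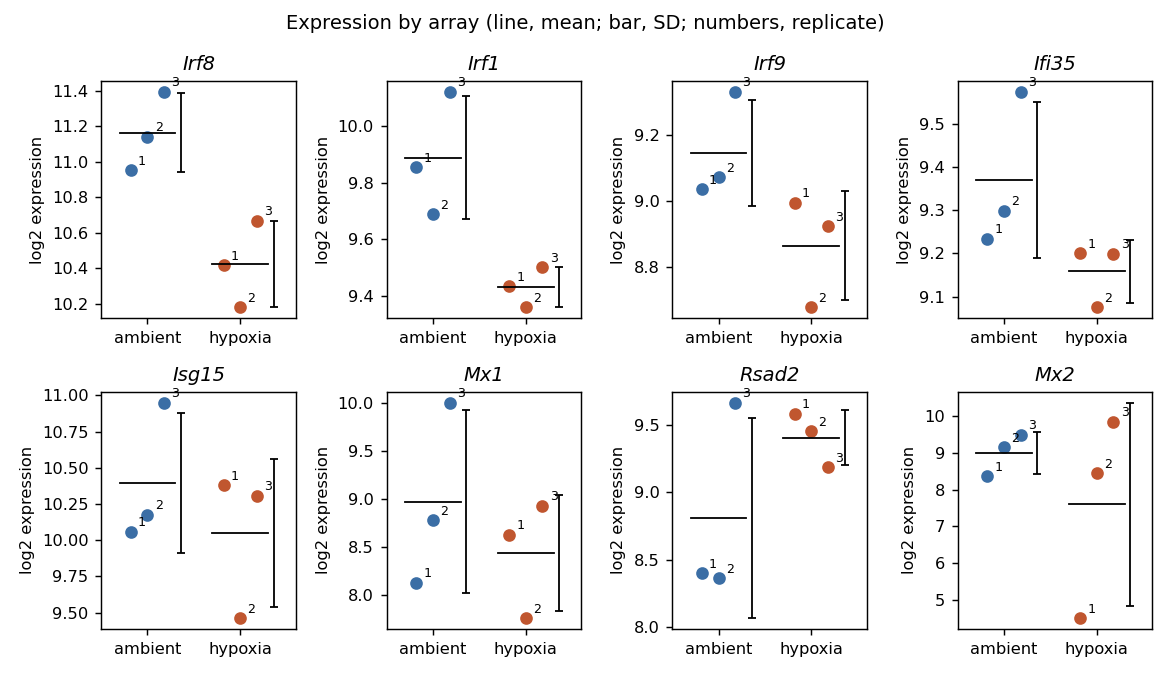
Log2 value on each of the 6 arrays (points, numbered by replicate) of 8 interferon genes, ambient and hypoxia side by side, with the group mean (line) and SD (bar). The groups separate for Irf8, Irf1, Irf9 and Ifi35 and overlap for Isg15, Mx1, Rsad2 and Mx2, where ambient replicate 3 is high or, in Mx2, hypoxia replicate 1 is at 4.51.

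Irf8 marks myeloid cells as well as interferon signalling, so the level of macrophage and dendritic cell markers is given beside it. All 11 listed markers were on the array and none was at the level of the bacterial controls. Of the 10 kept, 0 rose, 1 fell (Cd163, -1.05, SE 0.09, adjusted p = 0.0034) and 9 did not pass, and 10 of the 11 differences were negative. Of all kept probe sets 1.97% fell. The mean log2 level of the list was 8.34 to 8.57 on the ambient arrays and 8.04 to 8.23 on the hypoxia arrays. The part of these cells in the lower Irf8 was not tested.

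Markers of lymphocytes, the cells that make interferon gamma, were counted in the same way. For the counts in this paragraph, 4.02% of all kept probe sets rose and 1.97% fell. Of 10 kept natural killer cell genes 0 rose, 3 fell (Nkg7, Il2rb and Cst7) and 7 did not pass, among them Klrd1 with a difference of 0.52, and the list's mean level was 9.83 to 9.87 in ambient and 9.57 to 9.78 in hypoxia. Of 5 kept T and B cell genes 0 rose, 2 fell (Cd3g and Cd8a) and 3 did not pass, with a mean level of 6.08 to 6.44 in ambient and 5.58 to 5.89 in hypoxia. Each of these 5 calls was lost on leaving out at least 1 of the arrays. Gzma and Ms4a1 were at the level of the controls in both groups. In the other direction, both kept neutrophil genes rose, S100a8 by 1.38 (SE 0.15) and S100a9 by 1.67 (SE 0.15). The calls were kept in all alternatives run on them, 14 for S100a8 and 15 for S100a9. The neutrophil list's mean level was 5.66 to 5.83 in ambient and 6.28 to 6.57 in hypoxia, with Camp and Csf3r at the level of the controls. Also in that direction, 9 of 12 trophoblast genes and 4 of 7 endothelial genes rose. The trophoblast list's mean level was 6.97 to 7.79 in ambient and 8.80 to 9.08 in hypoxia. Calls of Prl7a3, Plac1, Krt7, Tie1 and Vwf were kept in all alternatives run on them. Each other call in these 2 lists was lost in at least 1. Tek and Egfl7 lost theirs in 7 of 15. Of 9 decidual stroma genes 2 rose (Bmp2, lost in 6 of 14 alternatives, and Hand2, lost in none), 0 fell and 7 did not pass. That list's mean level was 10.01 to 10.23 in ambient and 10.32 to 10.57 in hypoxia. The part of these shifts in the values of the interferon genes was not tested.

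In the type I antiviral class no gene rose or fell: 22 of 22 measured genes did not pass. The differences were positive for 5 genes and negative for 17, from -1.41 (Mx2) to 0.60 (Rsad2), with a median of -0.18. The groups did not overlap for 2 genes, both lower in hypoxia (Ifi35 and Irf9). Only Irf9 had an unadjusted p under 0.05, which 23.7% of kept probe sets had.

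The sign of that median rested on 1 array. It was 0.0094 without ambient replicate 3, when 11 of the 22 differences were negative and 11 positive, and -0.03 without hypoxia replicate 2, when 13 were negative. It was -0.32 without ambient replicate 1, when 20 were negative. Values of single genes moved as well. Without ambient replicate 3 the difference was -0.01 for Mx1, -0.07 for Isg15, -0.06 for Oas1a, -0.11 for Oasl, -0.07 for Irf7, -0.03 for Ddx58 and -0.23 for Ifih1. It was 0.67 for Ifit3, and it was positive for Usp18 (0.18), Herc6 (0.23), Bst2 (0.08), Stat2 (0.09), Ifit1 (0.03) and Dhx58 (0.02). Without hypoxia replicate 2 it was -0.19 for Mx1, -0.05 for Isg15, -0.16 for Oas1a and -0.17 for Irf7.

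Effector genes that act on viral RNA or on virus entry and release gave wide intervals. Mx1, a dynamin-like GTPase that traps viral ribonucleoproteins, read 8.13, 8.78 and 10.00 in ambient and 8.63, 7.76 and 8.93 in hypoxia. The ambient arrays alone spanned more than the difference of -0.53 (SE 0.47; adjusted p = 0.535). Mx2, its paralog, read 8.38, 9.16 and 9.50 in ambient and 4.51, 8.44 and 9.86 in hypoxia. Hypoxia replicate 1 was below the highest bacterial control of that array (5.003), while hypoxia replicate 3 was the highest of all 6 arrays.

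The difference of Mx2 was -1.41 (SE 1.16; 95% interval -4.09 to 1.27; adjusted p = 0.508), and it was 0.14 without hypoxia replicate 1. A second Mx2 probe set read 7.996 on hypoxia replicate 1, the highest of the hypoxia arrays, and differed by -0.39. The low reading was seen in 1 of the 2 probe sets. Probe sets of the Mx and Oas families may also detect near-identical family members, which makes the level of a single gene uncertain.

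Oas1a and Oasl belong to the family of 2′-5′ oligoadenylate synthetases, which sense double-stranded RNA. Oas1a read 7.35, 7.58 and 8.42 in ambient and 7.77, 6.97 and 7.48 in hypoxia, a difference of -0.38 (SE 0.29; adjusted p = 0.477). Oasl read 6.998, 7.22 and 7.98 in ambient and 7.28, 6.74 and 6.98 in hypoxia, a difference of -0.40 (SE 0.25; adjusted p = 0.372). In both, ambient replicate 3 was the highest array and hypoxia replicate 2 the lowest, and the remaining 4 arrays were intermingled.

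Isg15, a ubiquitin-like protein that is attached to other proteins during the response, read 10.06, 10.18 and 10.95 in ambient and 10.38, 9.46 and 10.31 in hypoxia. Its difference was -0.35 (SE 0.29; adjusted p = 0.52). Usp18, the protease that removes Isg15 and dampens the type I receptor, read 8.48, 8.91 and 9.71 in ambient and 9.09, 8.47 and 9.06 in hypoxia, a difference of -0.16 (SE 0.30; adjusted p = 0.788). Herc6, a ligase of the family that attaches Isg15, differed by -0.07 (SE 0.25; adjusted p = 0.888). For Isg15, Usp18 and Herc6 alike, ambient replicate 3 was the highest array.

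The Ifit genes encode proteins that bind foreign RNA. Ifit1 read 6.34, 5.59 and 7.21 in ambient and 6.76, 5.69 and 5.53 in hypoxia, a difference of -0.39 (SE 0.44; adjusted p = 0.636). Ifit3 read 6.65, 6.85 and 7.72 in ambient and 7.65, 7.01 and 7.60 in hypoxia, a difference of 0.35 (SE 0.28; adjusted p = 0.505). Ifit2 differed by 0.09 (SE 0.15; adjusted p = 0.752), and its second probe set by -0.11. The 3 genes of the family thus had differences of both signs, none beyond the spread of the arrays.

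Rsad2 encodes viperin, which makes a chain-terminating nucleotide, and had the largest positive difference of the 35 genes. It read 8.40, 8.36 and 9.67 in ambient and 9.58, 9.45 and 9.19 in hypoxia. Ambient replicates 1 and 2 lay below all hypoxia arrays, and ambient replicate 3 lay above all of them. The difference was 0.60 (SE 0.32; 95% interval -0.14 to 1.33; adjusted p = 0.303). It was 1.02 without ambient replicate 3, with an adjusted p of 0.0244, so that 1 array decided whether it passed.

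The remaining effectors differed little. Bst2, or tetherin, which holds budding virus at the cell surface, had means of 11.85 ± 0.36 in ambient and 11.75 ± 0.31 in hypoxia (SD, n = 3 each). It differed by -0.10 (SE 0.20; 95% interval -0.56 to 0.36). Isg20, an exonuclease, differed by 0.07 (SE 0.19), Ifi44 by -0.11 (SE 0.14) and Eif2ak2, the double-stranded RNA kinase PKR, by 0.03 (SE 0.15). Ifi35 read 9.23, 9.30 and 9.57 in ambient and 9.20, 9.08 and 9.20 in hypoxia. Its groups did not overlap, but the nearest arrays lay 0.03 apart, and the difference of -0.21 (SE 0.10) had an adjusted p of 0.241.

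The cytoplasmic RNA sensors of the class had negative differences that did not pass. Ifih1, or MDA5, read 6.93, 6.94 and 7.33 in ambient and 6.97, 6.33 and 6.80 in hypoxia, a difference of -0.37 (SE 0.18; adjusted p = 0.266). Ddx58, or RIG-I, differed by -0.21 (SE 0.17; adjusted p = 0.511). Dhx58, or LGP2, which modulates both, differed by -0.10 (SE 0.18), and its other probe sets by -0.21 and -0.23. The groups overlapped for each of these probe sets.

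The transcription factors of the type I response did not pass. Irf7, which amplifies type I interferon production, read 10.59, 10.66 and 11.32 in ambient and 10.82, 10.28 and 10.55 in hypoxia, a difference of -0.31 (SE 0.21; adjusted p = 0.41). Irf9, the DNA-binding part of the Stat complex, read 9.04, 9.07 and 9.33 in ambient and 8.99, 8.68 and 8.92 in hypoxia. Its groups did not overlap and its 95% interval was -0.54 to -0.02 about a difference of -0.28 (SE 0.11), with an adjusted p of 0.177. Its second probe set overlapped between groups and differed by -0.09. Stat2, the partner of Irf9, differed by -0.03 (SE 0.10; 95% interval -0.27 to 0.22).

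Arrays within a group differed more for these genes than for most. The pooled SD within groups had a median of 0.34 over the 22 type I antiviral genes, 0.22 over the 5 gamma driven genes, 0.15 over the shared regulators and 0.11 over both ligand and receptors and all kept probe sets. It lay above 0.23, a level that 1863 of the 18625 kept probe sets exceeded, for 18 of the 22 antiviral genes and 2 of the 5 gamma driven genes. No ligand, receptor or shared regulator did so. Mx2, with 2.002, had the highest of all 18625.

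**Figure D3:**
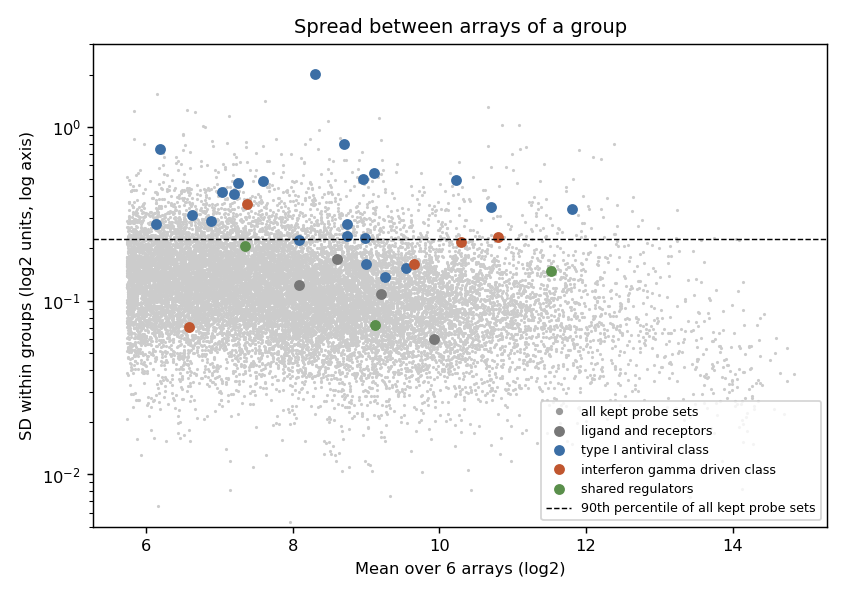
Pooled SD within groups (vertical, log axis, log2 units) against the mean over 6 arrays (horizontal, log2) for all kept probe sets (grey) and the 34 kept interferon genes by role. The dashed line, at 0.23, is exceeded by 1863 of the 18625 kept probe sets, and 18 of the 22 antiviral genes lie above it.

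The antiviral genes moved together from array to array within a group. Ambient replicate 3 was the highest of the ambient arrays for 22 of 22 antiviral genes (37.2% of kept probe sets) and the highest of all 6 for 20 of them (20.5%). The exceptions were Mx2 and Isg20. Hypoxia replicate 2 was the lowest of the hypoxia arrays for 18 of 22 (36.5%) and the lowest of all 6 for 13 (22.3%).

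The mean deviation of the antiviral genes from their own average over 6 arrays was -0.21, -0.06 and 0.56 on the ambient arrays and -0.02, -0.34 and 0.06 on the hypoxia arrays. The value of hypoxia replicate 1 turned on the low Mx2 reading: it was 0.16 without Mx2, and 17 of the 22 genes lay above their own average on that array. The range within the ambient group was thus wider than the difference between the groups. The same 2 arrays were the extremes for the gamma driven genes, with ambient replicate 3 highest for 4 of 5 and hypoxia replicate 2 lowest for 4 of 5. Their mean deviation was 0.08, 0.11 and 0.40 in ambient and -0.16, -0.37 and -0.05 in hypoxia, and the groups did not overlap.

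**Figure D4:**
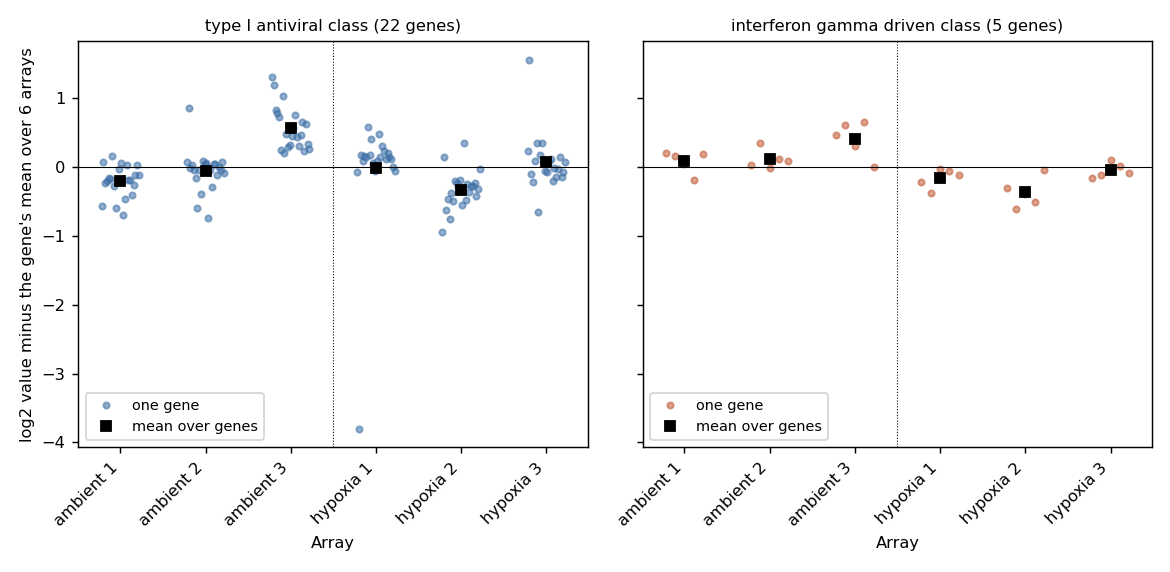
Log2 value minus the gene's mean over the 6 arrays (vertical) for each gene (small points) and the mean over genes (squares), by array, for the 22 type I antiviral genes (left) and the 5 gamma driven genes (right). Ambient replicate 3 is highest in both, at 0.56 and 0.40, and hypoxia replicate 2 lowest, at -0.34 and -0.37. The single low point on hypoxia replicate 1 is Mx2.

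Other measures of these arrays are given beside this order. The trophoblast markers had a mean log2 level of 6.97 on ambient replicate 3, against 7.79 and 7.64 on the other ambient arrays, while on hypoxia replicate 2, at 8.89, it was the middle hypoxia value. The macrophage and dendritic cell markers were lowest of the hypoxia arrays on hypoxia replicate 2, at 8.04, and took the middle ambient value on ambient replicate 3, at 8.55. The 3′ to 5′ difference of the beta-actin control probe sets, a sign of RNA integrity, was highest of all 6 on hypoxia replicate 2 (0.77). It was lowest on ambient replicate 3 (0.41). Between the groups it was 0.50 ± 0.07 in ambient and 0.67 ± 0.10 in hypoxia (SD, n = 3 each; two-sided exact permutation p = 0.1, the smallest that 3 against 3 arrays allow). Of 7 listed markers of plasmacytoid dendritic cells, the main producers of type I interferon, 5 were measured, and Siglech and Clec4c were not. The mean level of the 5 was 7.78 to 7.87 in ambient and 7.70 to 7.88 in hypoxia. Pacsin1 was at the level of the controls. The low filter left out Pacsin1 and Bcl11a and kept only Tcf4, Il3ra and Ptprs, so these values do not settle the level of those cells. The part of these measures in the order of the arrays was not tested.

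The classes were compared within each array, as the mean deviation of the gamma driven genes minus that of the antiviral genes. It was 0.29, 0.17 and -0.16 on the ambient arrays and -0.14, -0.04 and -0.12 on the hypoxia arrays. Ambient replicate 3 was the lowest of all 6, so the groups overlapped. Without Mx2 the contrast was 0.30, 0.21 and -0.13 in ambient and -0.32, -0.02 and -0.05 in hypoxia, and the groups again overlapped. With the median deviation of each class in place of the mean, it was 0.35, 0.11 and -0.0079 in ambient and -0.26, -0.08 and -0.12 in hypoxia, and the groups did not overlap. The last 2 forms were chosen after seeing the data. Whether this contrast kept the groups apart thus depended on how the genes of a class were summarised.

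The shared regulators did not pass the test. Irf3, the factor that starts type I interferon production when RNA or DNA is sensed, read 9.01, 9.06 and 8.98 in ambient and 9.21, 9.32 and 9.14 in hypoxia. Every hypoxia array lay above every ambient array, with a difference of 0.21 (SE 0.07; 95% interval 0.04 to 0.37; adjusted p = 0.132). Stat3, the transducer of interleukin 6 and related cytokines, read 11.72, 11.72 and 11.54 in ambient and 11.18, 11.53 and 11.46 in hypoxia. The groups did not overlap by a margin of 0.01, with a difference of -0.27 (SE 0.10; adjusted p = 0.144), and its second probe set overlapped and differed by -0.17.

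Socs3, the feedback inhibitor of Stat3 signalling, read 7.45, 7.41 and 7.67 in ambient and 7.24, 6.91 and 7.42 in hypoxia. The groups overlapped narrowly, hypoxia replicate 3 lying above ambient replicate 2, with a difference of -0.32 (SE 0.14; adjusted p = 0.215). Irf3 and Stat3 thus lay on opposite sides of 0, in intervals that left out 0 before adjustment.

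Other genes of the pathway were counted from lists, beside 4.02% of all kept probe sets that rose and 1.97% that fell. Of 11 Janus kinases, signal transducers and their phosphatases, 0 rose, 2 fell and 9 did not pass. Stat4, which carries the interleukin 12 signal that raises interferon gamma, read 7.66, 7.77 and 7.86 in ambient and 7.14, 6.87 and 7.34 in hypoxia. It fell by 0.65 (SE 0.13; adjusted p = 0.0301), a call that was lost on leaving out any array except hypoxia replicate 3 (adjusted p up to 0.111). Ptpn2, a phosphatase that turns off Janus kinase signalling, fell by 0.30 (SE 0.07; adjusted p = 0.0467), a call lost in 9 of 15 alternatives (adjusted p up to 0.151). These were leaving out any 1 array, no filter, no mean-variance trend and the replicate block. Jak2, the kinase of the interferon gamma receptor, differed by -0.52 (SE 0.13; adjusted p = 0.0541).

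Of 3 kept inducers of interferon gamma, 0 rose, 1 fell and 2 did not pass. Eomes, a T-box factor of natural killer cells that drives interferon gamma production, read 10.75, 10.83 and 10.92 in ambient and 10.42, 10.46 and 10.45 in hypoxia. It fell by 0.39 (SE 0.06; adjusted p = 0.0156), and a second probe set differed by -0.26 without passing. Leaving out ambient replicate 2 or 3, or hypoxia replicate 1, ended the call. Il15 and Il18, cytokines that sustain and activate natural killer cells, did not pass. Il15 differed by -0.73 (SE 0.20; adjusted p = 0.0698). Il18 differed by -0.31 (SE 0.09), with an adjusted p of 0.073. As given above, 3 of 10 kept natural killer cell markers fell too, and their part in these differences was not tested.

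Of 28 kept genes on a second list of antiviral genes, 0 rose, 2 fell and 26 did not pass. The median was -0.21. Of the 29 on the array 3 differences were positive, beside 50.8% of kept probe sets, and 26 were negative. The groups did not overlap for 0 genes higher and 10 lower in hypoxia, beside 15.8% and 14.1% of kept probe sets. An unadjusted p under 0.05 from limma without the low filter was found for 9 of the 29, against 19.3% of all probe sets. Sp110, a nuclear body protein, did not pass by its brightest probe set (-0.32), but its second probe set fell by 0.63 (SE 0.10; adjusted p = 0.0136). Ifitm1 and Ifitm2 encode interferon-induced membrane proteins that block virus entry. Ifitm1 read 10.86, 10.87 and 10.78 in ambient and 10.35, 10.21 and 10.42 in hypoxia, and fell by 0.51 (SE 0.07; adjusted p = 0.01), a call kept in all 15 alternatives run on these lists. Ifitm2 fell by 0.28 (SE 0.05; adjusted p = 0.0216), a call lost without a mean-variance trend, without any 1 ambient array or without hypoxia replicate 2. For Ifitm1 ambient replicate 3 was the lowest ambient array, unlike in all 22 genes of the antiviral class. It was the highest of all 6 arrays for 21 of the 29 genes on the second list.

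Of 17 kept genes on a second list of gamma induced genes, 1 rose, 1 fell and 15 did not pass. Over the 19 on the array the median was -0.27, with 5 differences positive and 14 negative. The groups did not overlap for 2 genes higher and 6 lower in hypoxia, beside 15.8% and 14.1% of kept probe sets. Tnfaip2, a gene first known as induced by tumour necrosis factor, read 9.80, 9.74 and 9.69 in ambient and 10.29, 10.27 and 10.22 in hypoxia, and rose by 0.51 (SE 0.06; adjusted p = 0.00601). Its other 3 probe sets differed by 0.34, 0.27 and -0.05 and did not pass. Vcam1, an adhesion molecule that binds leukocytes, read 10.13, 10.52 and 10.55 in ambient and 8.75, 8.98 and 9.79 in hypoxia. It fell by 1.23 (SE 0.25; adjusted p = 0.0336), a call lost on leaving out any array other than hypoxia replicate 3.

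In the remaining lists 1 gene passed. Il11ra1, a receptor chain for interleukin 11 that is needed for decidualization in mice, rose by 0.78 (SE 0.10; adjusted p = 0.00859), and the other 6 kept genes shared with interleukin 6 signalling did not pass by their brightest probe sets. One of them, Il6st, the shared signal-transducing receptor chain, differed by 0.42 there, while its 3 other probe sets rose by 0.70, 0.56 and 0.65 (adjusted p of 0.00471, 0.00601 and 0.00499). Of 7 nucleic acid sensors and adaptors 0 rose and 0 fell, and Myd88, the adaptor of Toll-like receptors, had the smallest p (-0.28, SE 0.07, adjusted p = 0.0598). The 4 other interferon regulatory factors did not pass either, with Irf5 nearest at -0.38 (SE 0.12; adjusted p = 0.106). Of the 2 kept genes among other interferon ligands and receptors neither passed. Ifnk, which was left out by the low filter, read 5.68, 4.92 and 4.68 in ambient and 6.77, 5.12 and 6.20 in hypoxia, and the groups overlapped.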

How the data were processed

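Total RNA was Trizol-extracted, labelled with biotin and hybridised to Affymetrix rat arrays, per the labels' protocols. The authors deposited 1 log2 value per probe set and array; the scale was read from the values (2.98 to 14.9). MAS5 and Affymetrix Expression Console are named in the submitters' processing notes, without roles. How background, probe summary and scaling were handled is not given in the sources used here. These steps set how far low signals are compressed.

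After 57 control probe sets, 31042 remained, 20826 with 1 gene symbol, 436 with several and 9780 with none. The dimmest 40% by mean value (below 5.74) were left out, and 18625 kept. The groups were compared with limma 3.58.1 in R 4.3.3 (lmFit, then eBayes with trend, group the only term, two-sided, Benjamini-Hochberg over all kept probe sets, threshold 0.05). Adjusted p-values come from this fit, with n = 3 arrays per group. Groups come from the sample titles. Genes outside the filter took their values from the fit without one. The number of arrays limits the precision. On simulated data with the same 18625 probe sets, the fit recovered 50% of changes of 0.5, 88% of 1 and 94% of -1 (log2), with 5 calls among 18425 unchanged. The simulation changed fewer probe sets than were called in these data and drew noise independently, whereas the antiviral genes moved together. Its rates are therefore not those of the interferon genes. Signal at background was read against 27 bacterial control probe sets.

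The genes, classes, lists and tests were chosen with earlier results of these data known, so counts over them are descriptions. Every listed gene is named; of other pathway genes, those past the threshold and, of a list without one, that with the smallest p. Jak2, Il15, Il18, Sp110, Il6st and Klrd1 were added after their values were seen. Alternatives changed the filter, normalization, variance model, array weights, replicate block, an offset of 64 on the linear scale, probe set choice, and left out each array.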

Additional observations from a re-analysis of the deposited data

How the results depend on the processing

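Irf8 was called lower in 12 of 16 alternatives and kept its sign in all. The number of interferon genes called lower was 2 (Irf8 and Irf1) with 60% of probe sets left out, with quantile normalization, with median centring and with robust eBayes, and 0 to 1 when an array was left out. The number called higher was 0 to 1 when an array was left out (Rsad2, without ambient replicate 3) and 0 in the other alternatives. Called probe sets over the whole array fell from 1116 to between 267 (without ambient replicate 3) and 1029 (without hypoxia replicate 3). Quantile normalization moved the share of all calls that were higher from 67.1% to 55.4%. Of 570 single-gene values over the alternatives, 559 kept their side of the threshold and their direction or were never called, 7 gained a call and 4 lost one, and 24 uncalled values changed sign. The median of the gamma driven class was negative throughout, and that of the antiviral class was positive without ambient replicate 3.

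Replicate numbers were not treated as pairs in the main fit. Deviations of same-numbered arrays correlated at 0.01, 0.07 and 0.07, and those of differently numbered arrays at -0.14 to 0.08. With so few arrays these values do not settle whether the numbers pair them. With the number as a replicate block, 1317 probe sets and 2 interferon genes (both lower) were called. With 3 arrays per group, changes of 0.5 on the log2 scale were recovered in 50% of simulated cases, in a setting that differed from these data. Antiviral genes also varied more than most, so a missed threshold does not show equal levels.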
